A study of Mus musculus with 6 samples.

Results

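The genes described here are those whose symbols name a protein of the cytosolic ribosome, 84 of the 24421 symbols in the deposited count tables. They were chosen by symbol alone. Of 100 symbols that begin Rpl or Rps followed by a digit, 10 ribosomal S6 kinases (symbols beginning Rps6k) and 6 symbols marked as pseudogenes with -ps were left out, which left 50 large subunit (Rpl) and 34 small subunit (Rps) symbols. All 84 passed the filter on low counts, as did 13848 of all symbols. The symbol rule takes in a few rows that are not classical subunits: Rps19bp1 encodes a protein that binds Rps19, Rpl7l1 encodes a nucleolar relative of Rpl7, and Rps4l and Rpl37rt are annotated as transcribed processed pseudogenes. It leaves out ribosomal proteins with other symbols, such as Rplp0 and Rpsa, which are given near the end.

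The series measured RNA at embryonic day 9.5 in samples labelled as whole mouse embryo, strain C57BL/6N. The samples were 3 wild type (WT) and 3 with a homozygous knockout of Lphn2 (Lphn2_KO), the gene for latrophilin-2, a receptor of the adhesion class that the series presents as a marker of cardiac progenitors. The labels give no promoter, Cre driver or deleted exon for the knockout, and do not say whether a sample was 1 embryo, so the spread between samples may be in part technical. The comparison asks how transcripts differ between samples labelled with and without the knockout. Markers of several tissues also differed between these samples, as given below.

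The cytosolic ribosome joins a small subunit, which reads the message, to a large subunit, which forms the peptide bond and lets the new protein out through a tunnel. Each subunit holds its proteins in fixed proportion, and their messages are among the most abundant in dividing embryonic tissue. Most of these messages begin at a C followed by a run of pyrimidines, the terminal oligopyrimidine (TOP) motif, through which growth signalling controls their translation. Mammalian genomes also carry many processed copies of ribosomal protein genes, and a few functional duplicates that are used in testis, muscle or stress.

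The start sites are shown first, because a pyrimidine run at the start was more frequent in these genes than in all genes. RefSeq start sites (GRCm38.p6) were found for 64 of the 84 symbols, in 76 windows. Each window below runs from 15 bases before the start to 15 bases from it, on the strand of the gene, with capitals for every run made of a C followed by at least 4 C or T and beginning within 10 bases of the start on either side. Rpl35, Rpl27a, Rpl15 and Rps10 show long runs. Rps24 and Rpl36a had the largest positive differences between groups. Rps27 and Rpl39 stand beside their duplicates, and the duplicate Rpl22l1 is printed without its parent Rpl22. Only windows that hold a run are printed, and 41 of the 76 windows held one. Windows without a run, left out here, include those of Rpl36al and Rps4x, a window of Rpl22 and another window of Rps24.
Rpl35 (chr2:39005117-39005146, minus strand): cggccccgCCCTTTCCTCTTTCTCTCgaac
Rpl27a (chr7:109519180-109519209, plus strand): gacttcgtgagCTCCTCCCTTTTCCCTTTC
Rpl15 (chr14:18270972-18271001, minus strand): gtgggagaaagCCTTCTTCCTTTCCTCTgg
Rps10 (chr17:27635230-27635259, minus strand): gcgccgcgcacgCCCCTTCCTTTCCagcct
Rps24 (chr14:24490663-24490692, plus strand): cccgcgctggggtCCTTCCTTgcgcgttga
Rpl36a (chrX:134585639-134585668, plus strand): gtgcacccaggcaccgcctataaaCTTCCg
Rps27 (chr3:90213634-90213663, minus strand): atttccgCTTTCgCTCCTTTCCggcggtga
Rps27rt (chr9:114982725-114982754, minus strand): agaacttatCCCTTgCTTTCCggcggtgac
Rpl39 (chrX:37085208-37085237, minus strand): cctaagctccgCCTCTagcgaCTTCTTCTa
Rpl39l (chr16:10170213-10170242, plus strand): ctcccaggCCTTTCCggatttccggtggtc
Rpl22l1 (chr3:28805493-28805522, plus strand): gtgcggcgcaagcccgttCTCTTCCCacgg

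The run was present in 53.9% of the ribosomal protein windows and in 30.7% of the 32851 windows of all genes. Large and small subunit windows were alike in this, at 54.3% and 53.3%. In the 300-base windows (250 bases before the start to 50 after it), searched on both strands, CCGGAAG, a core recognised by ETS-family factors, was present in 32.9% of ribosomal protein windows and 8.86% of all windows. GCCATNTT, the core bound by YY1, was present in 22.4% and 6.05%, the GC box GGGCGG in 57.9% and 35.7%, and TATAAA in 7.89% and 13.6%. The run nearest the start and the bases after it are alike in the Rps27 and Rps27rt windows, a pair whose counts are described below. A match says only that these letters stand in the window.

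The libraries held 18352150 to 36213611 counts in WT and 14476809 to 23887717 in Lphn2_KO, with 14880 to 17322 symbols above 0. The precursor of ribosomal RNA (Rn45s) made up 7.83% to 11.2% of WT and 8.13% to 11.96% of Lphn2_KO counts. The knocked-out gene, listed as Adgrl2, was read at 10.9, 7.56 and 15.96 CPM (counts over the TMM-scaled library total, on the scale of edgeR's cpm) in WT replicates 1, 2 and 3 and at 5.49, 1.67 and 2.78 CPM in Lphn2_KO replicates 1, 2 and 3. The log2 fold change of Adgrl2, Lphn2_KO over WT, was -1.78 and did not pass edgeR's test (adjusted p = 0.194). These 3' tags do not check the knockout if they lie outside the deleted part, which the labels do not give. Markers of several tissues differed between the libraries, and their part in the results that follow was not tested except where a value is given. The summed CPM of 8 trophoblast markers was 5042, 5925 and 1417 in WT and 3724, 52.1 and 146 in Lphn2_KO, in replicate order. The 6 primitive erythroid markers summed to 1474 to 2217 in WT and to 748, 76.5 and 56.2 in Lphn2_KO, and the 8 yolk sac markers to 321 to 582 and to 159, 24.6 and 25.2. The 8 decidua markers, from the maternal lining of the uterus, summed to 16274 to 30436 in WT and 3832 to 7929 in Lphn2_KO. That sum was carried by Prl8a2: only Prl8a2 and Prl3c1 had a lower mean in Lphn2_KO, and the other 6 decidua markers, Bmp2, Wnt4, Hand2, Hoxa10, Hoxa11 and Pgr, had a higher one. The 4 natural killer cell markers summed to 129 to 280 in WT and 375 to 685 in Lphn2_KO, each with a higher mean there, while every trophoblast, erythroid, yolk sac, heart and neural marker had a lower mean in Lphn2_KO. The 5 heart markers summed to 36.3 to 249 in WT and 3.93 to 16.3 in Lphn2_KO, with Nkx2-5, a defining cardiac factor, at 0 in all 3 Lphn2_KO libraries and in WT replicate 2. The 4 neural markers summed to 17.9 to 54.8 in WT and 7.20 to 7.84 in Lphn2_KO. In bulk tissue, fewer cells of a type and less RNA per cell cannot be told apart. Nor can genotype be told apart here from a different mix of maternal and embryonic tissue in the samples.

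Ribosomal protein messages took a similar part of every library, and both subunits were somewhat higher on average in the knockout without separating the groups. Large subunit symbols held 1.28%, 1.04% and 1.16% of counts in WT replicates 1, 2 and 3 and 1.31%, 1.30% and 1.21% in Lphn2_KO replicates 1, 2 and 3. Small subunit symbols held 1.38%, 1.17% and 1.30% in WT and 1.49%, 1.46% and 1.35% in Lphn2_KO. WT replicate 2 was the lowest library for both subunits, and WT replicate 1 lay above Lphn2_KO replicate 3 in both, so the groups overlapped. The means were 1.16 ± 0.118% and 1.27 ± 0.0558% for the large subunit and 1.28 ± 0.109% and 1.43 ± 0.0702% for the small subunit (SD, n = 3), and neither difference passed an exact two-sided permutation test (p = 0.2 for each, adjusted p = 0.267 over 4 measures). With 3 against 3 the smallest p this test can give is 0.1.

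The balance of the subunits was nearly the same in the 6 libraries. The log2 ratio of large to small subunit counts was -0.11, -0.16 and -0.16 in WT replicates 1, 2 and 3 and -0.18, -0.16 and -0.16 in Lphn2_KO replicates 1, 2 and 3. WT replicate 1 was highest and Lphn2_KO replicate 1 lowest, with the other libraries between them. The group means were -0.15 ± 0.03 and -0.17 ± 0.01 (SD, n = 3), and their difference did not pass the exact two-sided permutation test (p = 0.3). The sign of this small difference depended on the summary: it was -0.025 with summed counts, 0.038 with the median member in place of the sum and 0.012 with the 3 most abundant members of each subunit left out.

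**Figure D1:**
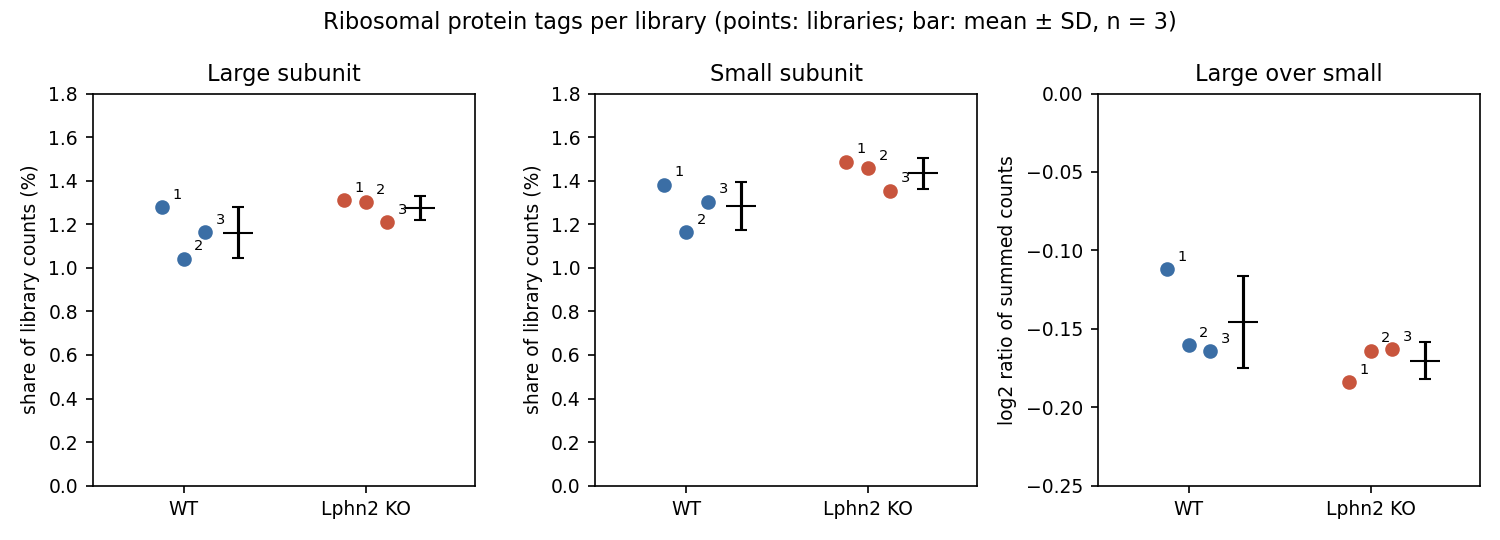
Share of each library's counts in large subunit symbols (left) and small subunit symbols (middle), in percent, and the log2 ratio of large to small subunit counts (right). Points are libraries with their replicate numbers and bars are mean ± SD of 3; the WT and Lphn2_KO points overlap in all 3 panels.

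The levels of single members spanned a wide range. The assay reads tags from the 3' end of each message, so CPM is not divided by length. Over all 6 libraries, 59 members averaged at least 100 CPM, 22 averaged from 5 to under 100 CPM and 3 fell under 5 CPM, with a median of 163 CPM. The 5 most abundant members held 30.3% of the CPM of the set. Rps14, a small subunit protein, was highest at 2128 ± 395 CPM in WT and 2237 ± 152 CPM in Lphn2_KO (SD, n = 3). Rps24, described below, came next in the small subunit, and then Rps20 at 1236 ± 87.8 and 1322 ± 64.2 CPM. Rpl22, a large subunit protein that cells can do without for most translation, led its subunit with 1289 ± 86.7 and 1401 ± 65.3 CPM, ahead of Rpl34 at 1003 ± 200.2 and 1041 ± 75.2 CPM and Rpl8, close to the peptidyl transferase centre, at 758 ± 50.5 and 819 ± 60.1 CPM. Rps14, Rps20, Rpl22, Rpl34 and Rpl8 each differed between the groups by less than the SE, with log2 fold changes of Lphn2_KO over WT of 0.05 to 0.12. Rps24 differed by more than its SE (0.43 ± 0.17). At the lower end of the small subunit proteins stood Rps13, at 37.4 ± 5.30 and 37.7 ± 4.47 CPM.

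A message that shares its 3' end with other genes may lose or split its tags, and the handling of such reads is not given in the sources used here. In the GENCODE M21 transcripts, 72 of the 84 symbols shared a run of 50 bases within their last 300 bases with at least 1 other annotated gene, and 12 shared none. The median number of such genes was 7.5 and the highest was 82, for Rpl29. Among the 81 symbols averaging at least 5 CPM, level was lower where more genes shared a run (across genes, Spearman rho = -0.33 and Pearson r = -0.33 on log scales; all 81 come from the same libraries). The median level was 293 CPM in the 9 that shared no run and 100.3 CPM in the 27 that shared one with more than 10 genes. Levels of different ribosomal protein symbols are therefore compared here only with this limit, and Rpl26 had in every library the count of the predicted gene Gm15772.

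Between genotypes, no ribosomal protein symbol passed the test, and most lay slightly above 0. In edgeR's quasi-likelihood test over all 13848 genes, 0 of 84 were higher and 0 lower in Lphn2_KO at a Benjamini-Hochberg adjusted p under 0.05, where all genes gave 0 higher (0%) and 7 lower (0.0505%). Before adjustment, 2 members had p under 0.05 with higher values, Rpl36a and Rps24, and 0 with lower values, beside 8.68% and 6.86% of all genes. DESeq2 and limma-voom also called 0 members, although DESeq2 called 470 genes higher (3.49%) and 387 lower (2.87%). The median log2 fold change was 0.09 in the large and 0.10 in the small subunit, beside -0.04 over all genes tested and 0.04 over the 5797 genes that averaged at least 20 CPM.

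The members were also close together. Of the 84, 70 had a positive log2 fold change (40 of 50 large and 30 of 34 small subunit symbols), beside 46.6% of all genes and 53.7% of those averaging at least 20 CPM. All 81 that averaged at least 5 CPM lay within 0.5 of 0. The middle 50% ran from -0.45 to 0.28 for all genes and from -0.22 to 0.30 for those averaging at least 20 CPM. For the members it ran from 0.03 to 0.21. Their coefficient of variation among WT libraries had a median of 9.88%, beside 25.1% for all genes and 18.7% for genes averaging at least 20 CPM. The number of positive members fell to 58 without WT replicate 3 and to 54 with Lphn2_KO replicate 1 as the only knockout library. Over the scaling methods tried it ran from 67 to 74.

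All 3 Lphn2_KO values lay above all 3 WT values in 13 members, or 15.5%, beside 12.1% of all genes. Of the 5797 genes averaging at least 20 CPM, which are nearer to the members in level, 945 were separated in this way. That share is slightly above the share among the members. The 13 members were Rps24, Rps3, Rps15, Rps7 and Rps2 of the small subunit and Rpl36a, Rpl3, Rpl32, Rpl36, Rpl39, Rpl18, Rpl17 and Rpl28 of the large subunit. Their log2 fold changes ran from 0.14 to 0.43. All 3 Lphn2_KO values lay below all 3 WT values in Rpl39l and Rps19bp1, or 2.38%, beside 9.39% of all genes. Of the genes averaging at least 20 CPM, 388 of 5797 lay below. Among the 81 members of at least 5 CPM, 52 stood above the WT mean in Lphn2_KO replicate 1, 71 in replicate 2 and 57 in replicate 3.

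**Figure D2:**
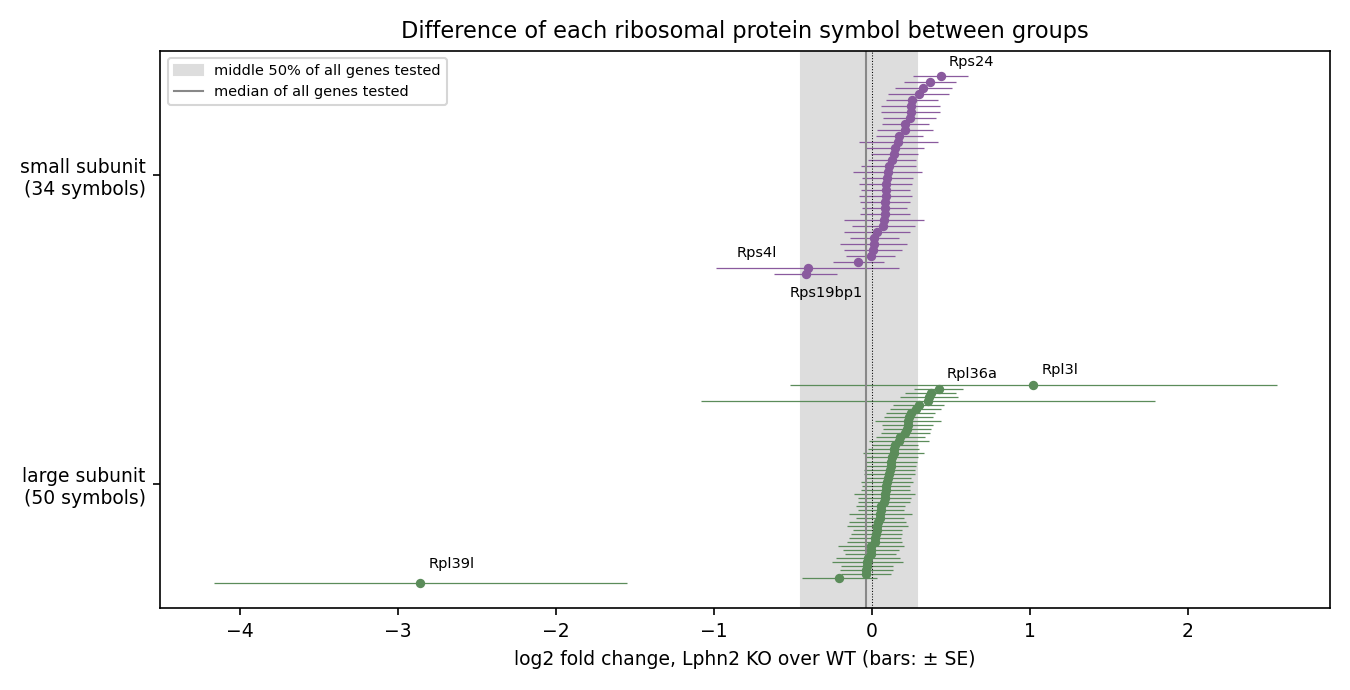
Log2 fold change of Lphn2_KO over WT for each of the 50 large and 34 small subunit symbols, sorted within the subunit, with bars of ± SE from edgeR's fit; the grey band is the middle 50% of all genes tested (-0.45 to 0.28) and the grey line their median. The middle 50% of the points lie between 0.03 and 0.21, and Rpl39l and Rpl3l, both under 5 CPM, stand far out with wide bars.

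Rps24, a small subunit protein mutated in some Diamond-Blackfan anaemia, had the largest positive difference among members of at least 5 CPM. It was read at 1474, 1446 and 1531 CPM in WT replicates 1, 2 and 3 and at 1759, 2279 and 1976 CPM in Lphn2_KO replicates 1, 2 and 3. Every knockout library was above every WT library, with replicate 2 the highest. The means were 1483 ± 43.5 and 2005 ± 261 CPM (SD, n = 3), a log2 fold change of 0.43 ± 0.17 (SE) that did not pass edgeR's test after Benjamini-Hochberg adjustment (adjusted p = 0.301). The gene lies on mm10 chromosome 14, 24487125 to 24496959, plus strand.

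Rpl36a, an X-linked gene (134585654 to 134588062, plus strand) for a large subunit protein at the tRNA exit site, was read at 110.7, 115.8 and 117.0 CPM in WT and 135.3, 165.7 and 159.3 CPM in Lphn2_KO, in replicate order. The WT libraries were tightly grouped and all lay below the knockout libraries. Its log2 fold change was 0.42 ± 0.15 (SE), with the smallest edgeR adjusted p of the set, 0.268. The 3' end of Rpl36a shared 100% of its runs with other annotated genes, 7 in all and Gm6525 among them. Tags of Rpl36a may thus not be cleanly assigned, which limits the reading of this difference. The start window of Rpl36a above holds a TATAAA just before a short pyrimidine run.

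Rpl3, a large subunit protein next to the peptidyl transferase centre (chromosome 15, 80077791 to 80091868, minus strand), stood at 154, 169 and 160 CPM in WT and 181, 229 and 214 CPM in Lphn2_KO. Rps3, a small subunit protein at the entry channel of the message (chromosome 7, 99477896 to 99483738, minus strand), stood at 496, 464 and 509 CPM in WT and 564, 702 and 627 CPM in Lphn2_KO. Rpl32 of the large subunit stood at 477, 566 and 578 CPM in WT and 584, 776 and 721 CPM in Lphn2_KO. In these 3 the knockout libraries were above the WT libraries, Lphn2_KO replicate 1 came nearest to WT and replicate 2 was highest. Their log2 fold changes were 0.37, 0.37 and 0.36, with edgeR adjusted p of 0.331, 0.345 and 0.394. The next in order were Rps18 (0.33), Rpl36 (0.30), Rps10 (0.30), Rpl39 (0.28) and Rps21 (0.25), with adjusted p from 0.414 to 0.506 in the same test. Rps18, Rps10 and Rps21 overlapped between groups, while Rpl36 and Rpl39, a small protein that lines the exit tunnel, did not.

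Negative differences were fewer and, in the subunit proteins themselves, small. Rpl21, a large subunit protein, was read at 71.9, 45.6 and 44.7 CPM in WT and 50.3, 51.1 and 39.2 CPM in Lphn2_KO. All 6 counts were even numbers, a limit described below for Rpl37rt. WT replicate 1 alone was high, and the other 5 libraries lay between 39.2 and 51.1 CPM (log2 fold change -0.21, edgeR adjusted p = 0.706). Rps16 followed at -0.09, and Rpl15, Rpl11, Rpl29, Rpl4 and Rpl35a lay between -0.04 and -0.01. Rps19bp1, which is not a subunit, was at 19.0, 24.4 and 20.3 CPM in WT and 16.6, 14.1 and 16.9 CPM in Lphn2_KO. The groups did not overlap, but the log2 fold change of -0.42 ± 0.20 (SE) did not pass edgeR's test (adjusted p = 0.371). It was 1 of 4 members that lay more than 3 scaled median absolute deviations from the median member, with Rps4l, Rpl39l and Rpl3l.

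Among the members of at least 5 CPM, Rps4l varied most between the Lphn2_KO libraries. It lies on chromosome 6 (148354656 to 148355598, plus strand), is annotated as a transcribed processed pseudogene, and is a copy of Rps4x, the X-linked gene for a small subunit protein. It was read at 324, 306 and 206 CPM in WT replicates 1, 2 and 3 and at 407, 154 and 69.6 CPM in Lphn2_KO replicates 1, 2 and 3. Lphn2_KO replicate 1 was the highest of the 6 libraries, and the other 2 knockout libraries were the lowest. The coefficient of variation was 83.6% in Lphn2_KO and 22.7% in WT, where Rps19 (33.2%), Rps9 (32.0%), Rpl21 (28.6%), Rps23 (25.6%) and Rps3a1 (22.9%) varied more.

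The Rps4l difference therefore depended on which knockout libraries entered. The means were 279 ± 63.4 and 210 ± 176 CPM (SD, n = 3), with a log2 fold change of -0.41 ± 0.58 (SE; edgeR adjusted p = 0.760). It was -1.32 without Lphn2_KO replicate 1 (adjusted p = 0.106), 0.02 without Lphn2_KO replicate 3 and 0.57 with Lphn2_KO replicate 1 alone. Its parent Rps4x was steady, at 273, 197 and 235 CPM in WT and 273, 285 and 256 CPM in Lphn2_KO (log2 fold change 0.21, adjusted p = 0.605). Rps4l stood at 119%, 155% and 87.9% of the Rps4x count in WT and at 149%, 54.0% and 27.1% in Lphn2_KO. The best annotated transcripts of the pair were identical at 78.6% of 903 aligned bases, with a longest identical run of 38 bases. The trophoblast marker sum, given above, had its 2 lowest values in the libraries with the 2 lowest Rps4l values, Lphn2_KO replicates 2 and 3, and WT replicate 3 came next in both. Erythroid and yolk sac sums were also lowest in those knockout libraries, but Lphn2_KO replicate 1, highest for Rps4l, came next after them in both. The part of any of these tissues in the Rps4l level was not tested.

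**Figure D3:**
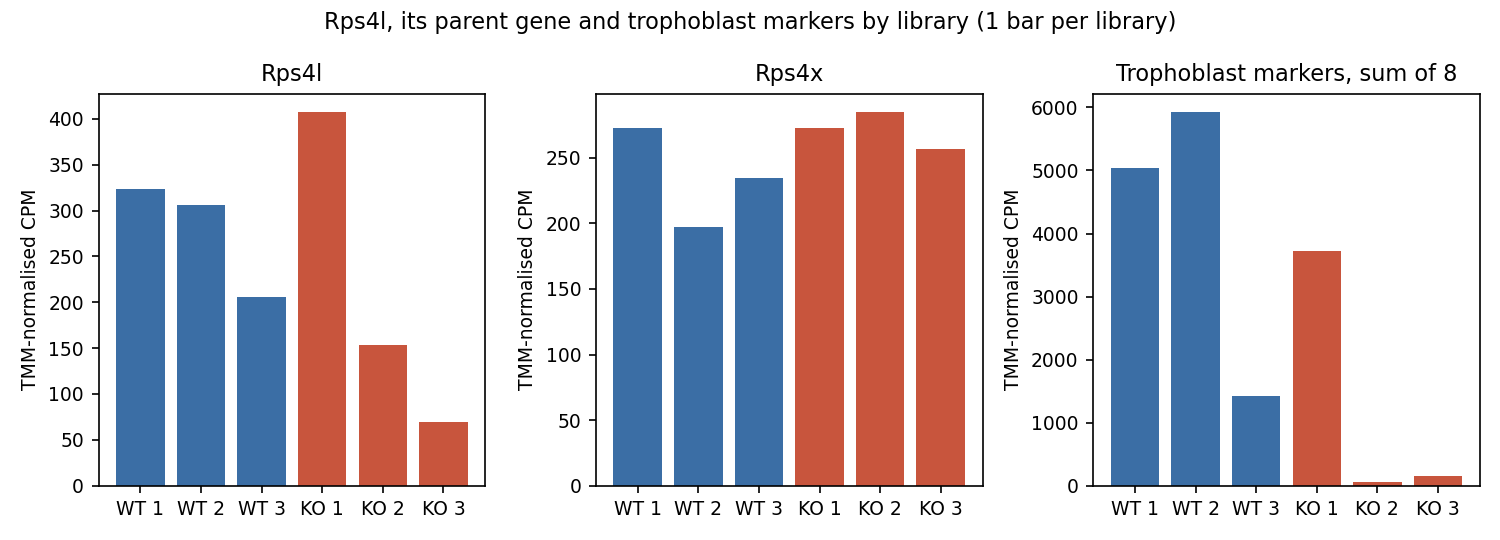
Normalised CPM in each of the 6 libraries for Rps4l, its parent Rps4x and the sum of 8 trophoblast markers, 1 bar per library on linear axes that start at 0. Rps4l and the trophoblast sum are lowest in Lphn2_KO replicates 2 and 3 and high in Lphn2_KO replicate 1, while Rps4x stays between 197 and 285 CPM.

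Rps27, a zinc-finger protein of the small subunit on chromosome 3 (90212522 to 90213651, minus strand), could not be told apart from its copy Rps27rt on chromosome 9 (114982366 to 114982739, minus strand). Rps27 was read at 98.1, 106.7 and 117.3 CPM in WT and 101.6, 140.2 and 140.3 CPM in Lphn2_KO. Rps27rt held at least 49.9% and at most 50% of the Rps27 count in every library, and Rps27 exceeded 2 times the Rps27rt count by 2, 3, 1, 4, 1 and 0 counts in the 6 libraries. The best annotated transcripts were identical over all 341 aligned bases, so these 2 rows are not independent measurements. Each had a log2 fold change of 0.25 (edgeR adjusted p = 0.565). The stress-responsive duplicate Rps27l, identical to Rps27 at 76.4% of aligned bases with no run over 11, was separate: it held 47.0 ± 4.15% of the Rps27 count in WT and 42.4 ± 4.66% in Lphn2_KO (SD, n = 3), with a log2 fold change of 0.09.

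Rpl37rt, on chromosome 5 (115102923 to 115110268, minus strand), is annotated as a processed copy of Rpl37 and was read above it in every library. Rpl37rt averaged 474 ± 63.4 CPM in WT and 486 ± 52.9 CPM in Lphn2_KO, while Rpl37 averaged 187 ± 6.53 and 199.6 ± 17.3 CPM (SD, n = 3). The copy thus held 252 ± 28.5% of the parent count in WT and 243 ± 5.71% in Lphn2_KO. The transcripts were identical at 343 of 344 aligned bases. The 3' end of Rpl37rt shared 48.03% of its runs with other annotated genes, Rpl37 among them, so tags of Rpl37rt may not be cleanly assigned. The 3' end of Rpl37 shared no run with another annotated gene, so this limit was not seen for tags from that end. How tags were divided between the pair was not tested. All 6 counts of Rpl37rt were even numbers, as they were for Rpl19, Rpl21 and Rpl3l. The counts of these 4 symbols may thus be multiples of the tags observed. Even counts can also fall together by chance, and the share of all genes with only even counts is not given here. The pair of Rpl37 and Rpl37rt was examined after its values were seen.

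Rpl39l, on chromosome 16 (10170226 to 10174911, plus strand), encodes a variant of Rpl39 best known from testis. Its counts were 73, 45 and 84 in WT replicates 1, 2 and 3 and 24, 0 and 0 in Lphn2_KO replicates 1, 2 and 3, or 2.64, 2.74 and 2.19 CPM and 0.941, 0 and 0 CPM. The 2 groups did not overlap, and the 3 WT values were close together. The WT mean of 2.53 ± 0.292 CPM (SD, n = 3) was 2.69-fold above Lphn2_KO replicate 1, and at least 11.8-fold above the other 2 knockout libraries, taking 3 counts per library as the limit that a count of 0 allows. The fitted log2 fold change, which depends on the prior count where libraries are at 0, did not pass edgeR's test (adjusted p = 0.352). Without Lphn2_KO replicate 1 it did (adjusted p = 0.0313), as 1 of 466 genes lower in that fit (3.27%), where 1.77% of genes but 0 members were higher. It was the only member called under any alternative. Relative to Rpl39, which was at 134.8, 132.4 and 127.1 CPM in WT and 136.6, 166.7 and 174.4 CPM in Lphn2_KO, Rpl39l held 1.92 ± 0.177% of the parent count in WT and 0.230 ± 0.398% in Lphn2_KO.

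The Rpl39l values moved with marker sums as well. The erythroid, yolk sac, heart and neural sums were each lower in all 3 Lphn2_KO libraries than in any WT library, as Rpl39l was; so was the decidua sum, through Prl8a2 and Prl3c1 and not the other 6 decidua markers. Erythroid and yolk sac sums, like Rpl39l, were higher in Lphn2_KO replicate 1 than in replicates 2 and 3. Their part in the Rpl39l result was not tested.

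The other duplicates differed in how closely they followed their parents, and some were too low to compare. Rpl22l1, the paralog that can replace Rpl22, was read at 143, 150 and 123 CPM in WT and 158, 138 and 118 CPM in Lphn2_KO, with overlapping groups and a log2 fold change of -0.01. It held 10.8 ± 1.25% of the Rpl22 count in WT and 9.87 ± 1.51% in Lphn2_KO (SD, n = 3). Rpl36al, the autosomal duplicate of Rpl36a, was read at 145, 127 and 92.0 CPM in WT and 143, 108 and 106 CPM in Lphn2_KO. Its level overlapped between groups (log2 fold change -0.03), while its parent Rpl36a was higher in each knockout library, so Rpl36al stood at 131%, 110% and 78.6% of the parent count in WT and 105%, 65.5% and 66.3% in Lphn2_KO. The shared 3' end of Rpl36a, given above, limits this ratio too.

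Rpl7l1, which acts in ribosome assembly, held 61.4 ± 11.7% of the Rpl7 count in WT and 62.9 ± 3.04% in Lphn2_KO (SD, n = 3). The muscle paralog Rpl3l had counts of 18, 0 and 22 in WT and 0, 14 and 24 in Lphn2_KO, and the testis paralog Rpl10l had 23, 3 and 1 in WT and 19, 0 and 8 in Lphn2_KO. With both genotypes including a library at 0 in Rpl3l, its fitted log2 fold change of 1.02 is not resolved at this depth, and the same holds for the 0.36 of Rpl10l. Their parents Rpl3 and Rpl10, a protein needed for the subunits to join, were at 161 ± 7.27 and 126 ± 15.2 CPM in WT.

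The members also varied among themselves in a way that genotype did not order. Each member's log2 level was set relative to the median member of the library and to its own mean over libraries, and the main axis of these departures over the 81 members of at least 5 CPM held 57.1% of their variance. Libraries scored 1.78, 0.22 and -0.37 on it in WT replicates 1, 2 and 3 and 1.13, -0.92 and -1.84 in Lphn2_KO replicates 1, 2 and 3. WT replicate 1 and Lphn2_KO replicate 1 stood at one end, and Lphn2_KO replicate 3 at the other. Rps4l weighed most, followed at the same end by Rpl21, Rpl36al, Rpl4, Rps27a and Rps9, while Rps10, Rpl32, Rps27rt, Rps27 and Rpl19, a symbol with even counts only, weighed most at the other end. With Rps4l left out, the axis held 53.8%, and the scores were 1.86, -0.55 and -0.65 in WT and 0.76, -0.54 and -0.88 in Lphn2_KO, so that WT replicate 1 stood further apart. The share of counts in Rn45s was lowest in the 2 libraries with the highest scores, at 7.83% in WT replicate 1 and 8.13% in Lphn2_KO replicate 1, against 9.52% to 11.96% in the other 4; its part in this pattern was not tested.

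**Figure D4:**
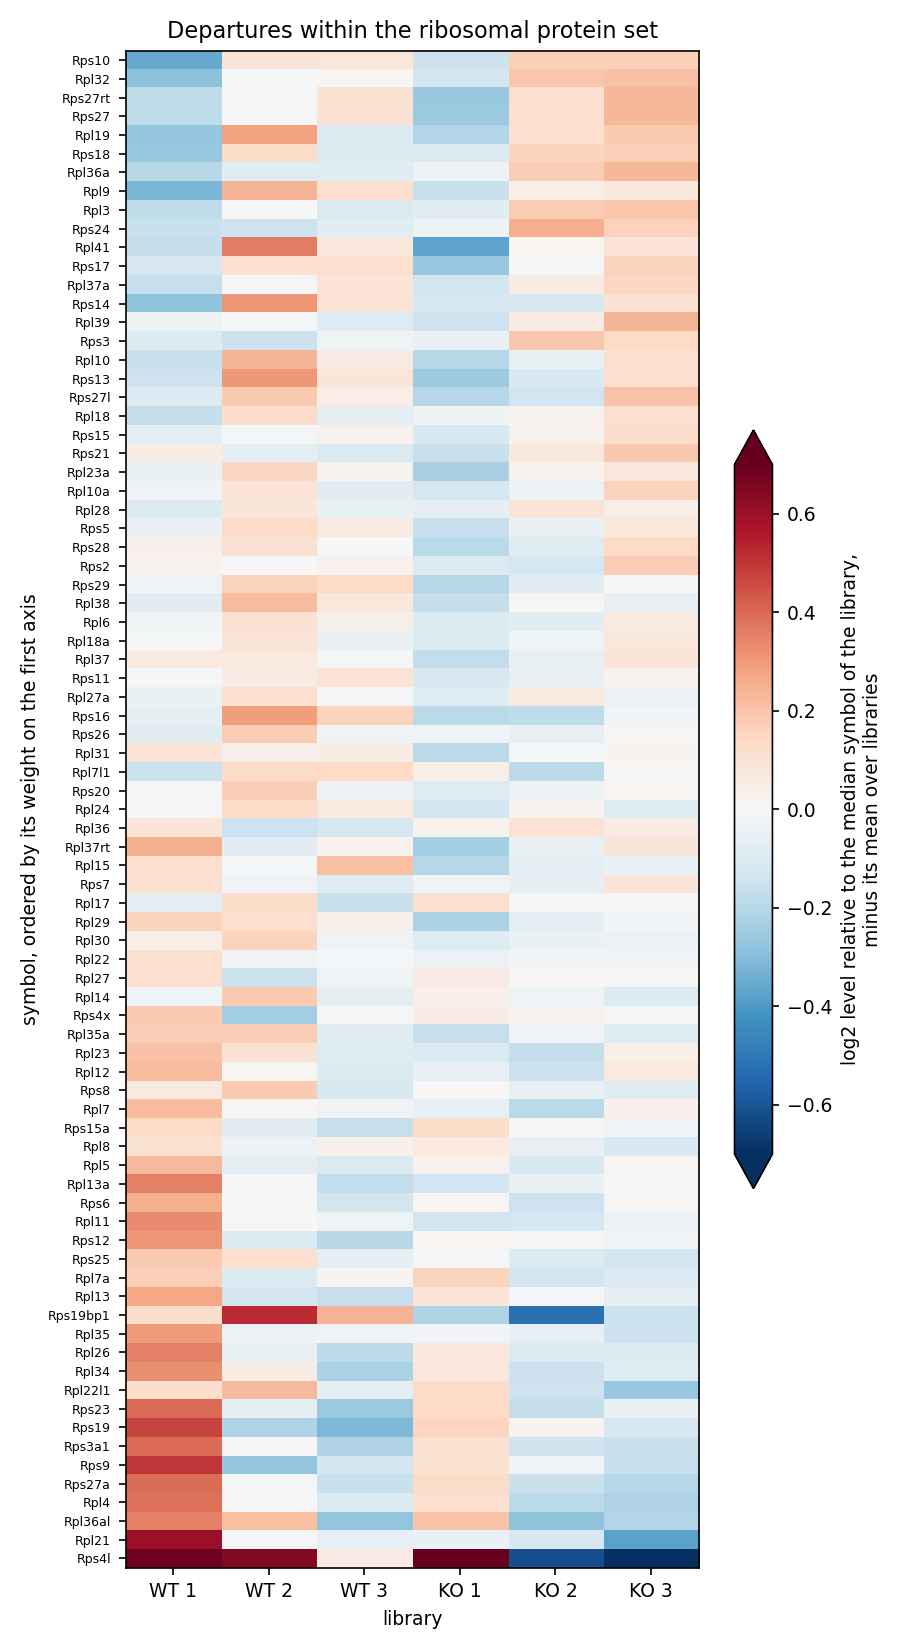
Heat map of 81 ribosomal protein symbols (rows, ordered by their weight on the main axis) in 6 libraries (columns); colour is the log2 level relative to the median member of the library, minus the symbol's mean over libraries, and values past 0.7 take the end colours. The rows near the bottom (Rps4l, Rpl21, Rpl36al, Rps9) are red and those near the top (Rps10, Rpl32) blue in WT replicate 1, and the same rows are paler in most other libraries apart from Rps4l.

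WT replicate 1 departed from the other WT libraries in single members, which were looked up after their values were seen. Rps19, the small subunit protein most often mutated in Diamond-Blackfan anaemia, was at 223, 134 and 127 CPM in WT and 195, 189 and 159 CPM in Lphn2_KO. Rps9 was at 1677, 946 and 1058 CPM in WT and 1399, 1346 and 1135 CPM in Lphn2_KO. In both, WT replicate 1 was the highest of all 6 libraries and the other 2 WT libraries the lowest. Rps14 went the other way, at 1706, 2490 and 2187 CPM in WT and 2086, 2233 and 2391 CPM in Lphn2_KO, with WT replicate 1 the lowest. WT replicate 1 was the highest WT library in 40 members (47.6%, beside 27.0% of all genes) and the lowest in 31 (36.9%, beside 26.6%). It differs in the labels too: the first number of its description code is 32 and that of the other 5 libraries 45, with no meaning stated. If the number is a batch, that batch holds 1 library; within the remaining 5 libraries the median log2 fold change was 0.15 for the large and 0.18 for the small subunit, and since 0 of 13993 genes (0%) passed in either direction there, the 0 members that passed say nothing about the members.

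Ribosomal proteins whose symbols the rule leaves out behaved like the members. Of 6 tested, 5 had a positive log2 fold change, with a median of 0.10, and 0 passed in either direction. Rpsa, a small subunit protein also known as a laminin receptor, was at 243 ± 16.3 CPM in WT and 261 ± 19.7 CPM in Lphn2_KO (log2 fold change 0.11), and Rplp0, of the stalk of the large subunit, at 342 ± 7.74 and 341 ± 31.7 CPM (log2 fold change -0.01; SD, n = 3). The 6 rows marked -ps held 4.87% to 34.3% of the mean CPM of their parent genes.

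Other genes of the translation apparatus were taken from lists and read against all genes tested, where 0 were higher and 7 lower. The lists overlap the members in part: ribosome biogenesis includes Rpl7l1, and growth control includes Rpl5 and Rpl11. Among 28 elongation and initiation factors and other TOP messages, 16 were positive and 12 negative, with a median of 0.13 and 0 passing. Eif4b, an initiation factor that assists the helicase, went from 144 ± 5.97 to 207 ± 36.8 CPM (log2 fold change 0.52, edgeR adjusted p = 0.254), and Eef2, the translocase of elongation, from 1406 ± 135 to 1880 ± 103 CPM (0.42, adjusted p = 0.301). Among 66 ribosome biogenesis genes, 23 were positive and 43 negative, with a median of -0.15 and 0 passing; Rrp1b, a nucleolar protein, was at 61.6 ± 6.16 and 98.4 ± 15.6 CPM (0.68, adjusted p = 0.183) and Noc2l at 28.4 ± 2.67 and 20.8 ± 0.579 CPM (-0.45, adjusted p = 0.273).

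The ribosome of mitochondria is a separate particle, and its 77 proteins had a median of -0.04, with 31 positive, 46 negative and 0 passing. Among them Mrpl11 was at 31.8 ± 1.58 and 21.5 ± 4.38 CPM (log2 fold change -0.56, edgeR adjusted p = 0.257), and Mrpl3 at 33.1 ± 6.50 and 47.2 ± 8.06 CPM (0.51, adjusted p = 0.323). Among 28 genes that control growth and ribosomal protein messages, 12 were positive and 16 negative, with a median of -0.07. The one that passed was Mxd1, a partner of Max that opposes Myc, which fell from 38.4 ± 4.74 to 10.3 ± 1.25 CPM (SD, n = 3; log2 fold change -1.90 ± 0.20 (SE), edgeR adjusted p = 0.0488). That call was lost when WT replicate 1, Lphn2_KO replicate 2 or Lphn2_KO replicate 3 was left out, and with the replicate block or 1 symbol per set of identical counts, fits in which 0 genes passed.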

How the data were processed

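RNA from 3 WT and 3 Lphn2_KO samples was sequenced as 3' tags (Lexogen QuantSeq after Trizol extraction, per the labels' protocols). The authors deposited whole-number counts per gene symbol without normalization, 1 table per sample. Bowtie2 and edgeR were used on build mm10, per the submitters' processing notes; no source used here gives their versions, the annotation, or how strand and multiply matching reads were handled. Groups come from the genotype labels.

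Computed here: filterByExpr of edgeR 4.0.16 (minimum count 10), TMM scaling, CPM on effective library sizes, and the quasi-likelihood test on all genes with no covariate, adjusted by the Benjamini-Hochberg method (threshold 0.05); exact permutation over 20 splits for single values. DESeq2 1.42.0, limma-voom (limma 3.58.1), other scalings, filters, a replicate block and leaving out each replicate were alternatives. Log2 CPM used a prior count of 2. R 4.3.3 and Python 3.11.15 were used. Tests were checked on simulated data with the same dispersion for every gene. The simulated differences were larger than those of every member averaging at least 5 CPM, so that check does not cover differences of their size.

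Positions, transcripts and shared runs come from GENCODE M21 on mm10, matched for all 84 symbols. Transcript pairs were aligned locally (Biopython 1.88). Start windows come from RefSeq, GRCm38.p6. No 2 libraries agreed within sampling noise (chi-square per degree of freedom 23.0 to 296 over genes). Deviations of same-numbered samples correlated above 0.1 for replicate 1 only, and the labels give the numbers no meaning, so numbers were not treated as pairs. The members, gene lists and marker lists were chosen with earlier results of these data known. Named members are the duplicates and their parents, the 3 highest and 3 lowest of each subunit, up to 10 per direction with the largest log2 fold change among those averaging at least 5 CPM, and those over 3 scaled median absolute deviations from the median member; per other list, up to 4 past the threshold or the 2 with the smallest p. One gene named by this rule is left unreported. The axis, the start windows, Rpl37rt and the replicate 1 description were added after values were seen. Intervals and limits from counts cover counting error only.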

Additional observations from a re-analysis of the deposited data

How the results depend on the processing

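The ribosomal protein result of 0 higher and 0 lower held under every alternative except without Lphn2_KO replicate 1, which called Rpl39l lower. Leaving out 1 replicate gave 0 to 1 members lower. In most of these alternatives no gene at all was higher and few were lower, so 0 members there says little about the members. Over all genes, the 7 lower became 387 with DESeq2 (470 higher, against 0), 0 with the replicate block, 0 with 1 symbol per set of identical counts and 0 with Lphn2_KO replicate 1 alone, and ran from 0 to 466 lower and 0 to 252 higher when 1 replicate was left out. The median log2 fold change ran from 0.059 to 0.15 for the large and from 0.079 to 0.18 for the small subunit over the same left-out replicates. The log2 difference of the subunit ratio was 0.038 with medians in place of sums and 0.012 without the 3 most abundant members of each subunit, against -0.025. The last 2 settings change what is summed; for the others the cause was not tested. Same-numbered samples correlated at 0.127, -0.0238 and 0.0706 in their deviations, and replicates 1 and 3 but not 2 correlated best with their own number; the replicate block left the members at 0 higher and 0 lower, with subunit medians of 0.09 and 0.11. Among 37 named members and 18 settings, 643 of 662 values stayed within the replicate spread of the reported ones, 18 moved further and 1 passed the threshold; 53 values in 19 members changed sign without being called. The settings with Lphn2_KO replicate 1 alone and with only members that share no 50-base run were chosen after seeing the data. With 3 libraries per group, differences of the size seen in most members are not resolved.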
